A study of Mus musculus with 4 samples.

Results

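The genes described here are 6 chemokines that draw T cells and natural killer (NK) cells, namely Cxcl9, Cxcl10, Cxcl11, Cxcl16, Ccl5 and Cx3cl1. They were taken as a named list, and all 6 were found by gene symbol among the 53647 genes of the count tables. RNA was sequenced from cultured 4T1 cells, a breast cancer line derived from a BALB/c mouse and of WT genotype in the labels. The uniSTING group was given mRNA that encodes uniSTING, a synthetic protein made to imitate active STING, the adaptor that relays cytosolic DNA sensing. The Mock group was given EGFP mRNA, which encodes a fluorescent protein without that activity. There were 2 libraries in each group, numbered as preparations in the labels and called replicates 1 and 2 here. A commercial transfection reagent and lipid nanoparticles are both named as carriers, without saying which library had which, and neither dose nor time is given. Both groups are the same single cell line and both had mRNA delivered, so that cells given no mRNA do not enter the comparison, and a culture without immune cells does not measure recruitment. The comparison addressed which immune pathways the mimic turns on in tumour cells, here for the genes that would call lymphocytes to a tumour.

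Chemokines are small secreted or membrane-bound proteins that guide leukocytes through G protein-coupled receptors. CXCL9, CXCL10 and CXCL11 share the receptor CXCR3 of activated T cells and NK cells, and their genes are known to be induced by interferons. CCL5 signals through several receptors, CCR1 and CCR3 among them, and its gene is a known target of IRF and NF-kB factors. CXCL16 and CX3CL1 are made as membrane proteins that tether cells through CXCR6 and CX3CR1 and are shed by the metalloproteases ADAM10 and ADAM17.

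Total counts were 18843543 and 25071840 in the uniSTING libraries and 17502694 and 22039546 in the Mock libraries. The epithelial identity of the line was checked with 8 markers, all detected in every library, with Krt8 between 1260 and 1319 CPM, the counts per 1000000 of the TMM-scaled library size. The 2 libraries of a group differed by 1.47 to 1.52 times the variance of counting noise, and the labels do not say that they came from separate cultures, so that p-values reflect the spread of these libraries alone, and it may be technical. The replicate 1 libraries of both groups stood apart from the replicate 2 libraries in 54 genes that reached 20 counts in one or both of them and whose replicate 2 counts summed to at most 5% of their own. Among them, chosen after its values were seen, the insulin gene Ins2 had 2117 counts in uniSTING replicate 1 and 1226 in Mock replicate 1, against 0 in both replicate 2 libraries. No gene showed the opposite pattern. The members' ratios are therefore also given for each replicate number.

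Promoter sequences of the members are shown first, since promoters can hold the elements through which interferon and NF-kB factors are known to act. The RefSeq promoter table (GRCm38.p6, 250 bases before to 50 after the gene start) held 3 of the 6 members, Cxcl10, Cxcl9 and Cx3cl1. They lie at chr5:92348840-92349139 on the minus strand, chr5:92328030-92328329 on the minus strand and chr8:94771930-94772229 on the plus strand. Capitals mark matches to the core of the interferon-stimulated response element, which is GAAA, any 2 bases and GAAA again, and to the kB consensus, searched on both strands with no match overlapping another.
Cxcl10: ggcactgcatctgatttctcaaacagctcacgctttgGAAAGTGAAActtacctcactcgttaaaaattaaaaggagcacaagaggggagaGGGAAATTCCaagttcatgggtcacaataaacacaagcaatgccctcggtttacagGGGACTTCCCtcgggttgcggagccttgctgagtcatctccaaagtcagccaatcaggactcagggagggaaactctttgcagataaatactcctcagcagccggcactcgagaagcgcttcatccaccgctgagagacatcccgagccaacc
Cxcl9: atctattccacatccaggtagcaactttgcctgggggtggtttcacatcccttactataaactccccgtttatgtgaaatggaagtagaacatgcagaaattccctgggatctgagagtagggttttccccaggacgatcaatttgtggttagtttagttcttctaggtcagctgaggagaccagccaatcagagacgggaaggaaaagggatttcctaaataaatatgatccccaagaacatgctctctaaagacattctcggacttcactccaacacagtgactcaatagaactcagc
Cx3cl1: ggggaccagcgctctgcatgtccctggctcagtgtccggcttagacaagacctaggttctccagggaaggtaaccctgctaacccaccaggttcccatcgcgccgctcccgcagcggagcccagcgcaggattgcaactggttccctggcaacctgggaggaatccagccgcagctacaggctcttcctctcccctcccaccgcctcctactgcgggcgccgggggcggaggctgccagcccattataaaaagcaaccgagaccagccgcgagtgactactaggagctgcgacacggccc
The Cxcl10 window held 1 response element core, which began 213 bases before the gene start, and 2 kB matches, the farther of which began 159 bases before it. Of 32544 promoter windows of the same length, 3.45% held the response element core and 4.53% the kB consensus. The Cxcl9 and Cx3cl1 windows held neither of these letters, and none of the 3 held the GAS consensus TTCNNNGAA, which 8.33% of windows held. These matches are a description of sequence and were not tied to binding in these cells.

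Cxcl10 and Cxcl11 were many times higher in uniSTING cells, Ccl5 and Cxcl16 were moderately higher, Cx3cl1 was lower, and Cxcl9 was barely detected in either group. Of the 6 members, 5 passed the filter on low counts, and of these 4 were called higher and 1 lower (edgeR quasi-likelihood test, Benjamini-Hochberg adjusted p under 0.05 over 12972 genes). In the same test 50.2% of all genes were called, 24.9% higher and 25.4% lower, so that a call alone sets a gene little apart. Size separates the members more, since 2.00% of tested genes were called and at least 2-fold higher and 0.439% at least 4-fold higher, with Cxcl10 and Cxcl11 in both groups of genes. The median log2 fold change was 0.69 over the 5 tested members and 0.01 over all tested genes, but Cxcl11 passed the filter only through the uniSTING libraries and so had to differ. In bulk RNA, more responding cells and more RNA per cell cannot be told apart.

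**Figure D1:**
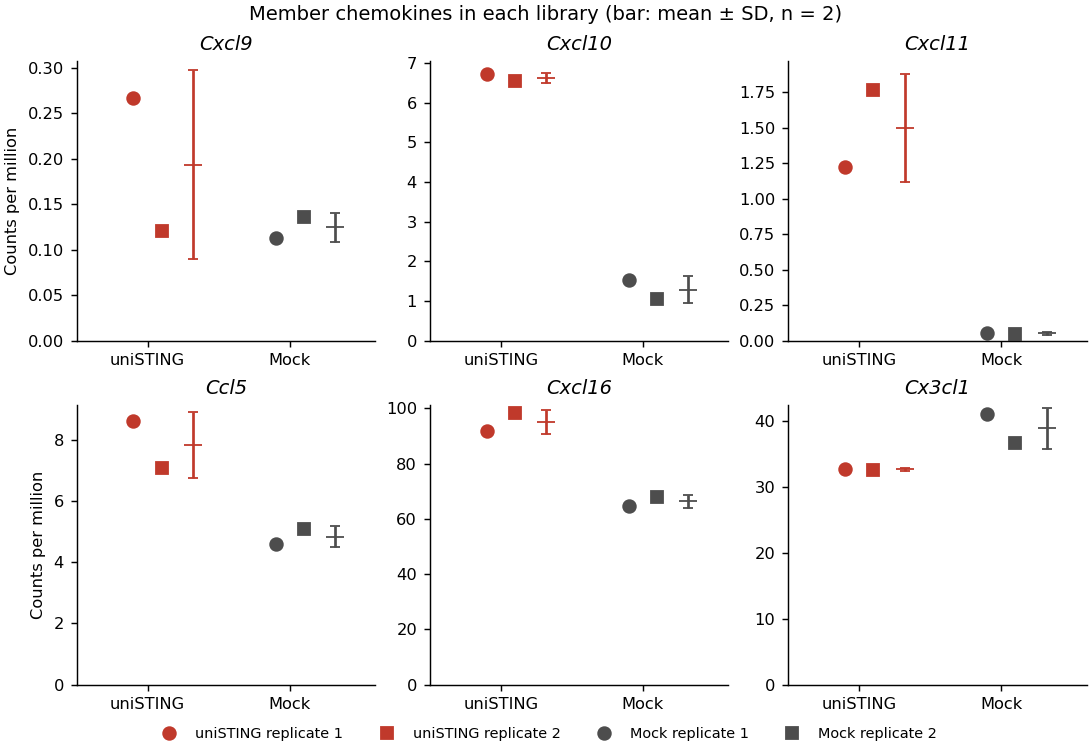
CPM of the 6 chemokines in each library (circles, replicate 1; squares, replicate 2), with the mean and SD of the 2 libraries of a group at the right of each pair; every axis starts at 0. Cxcl10, Cxcl11, Ccl5 and Cxcl16 are higher in both uniSTING libraries than in both Mock libraries, Cx3cl1 is lower in both, and Cxcl9 overlaps between groups.

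The CXCR3 ligands lie together on chromosome 5, on the minus strand within 44.1 kb (GRCm39, 92469206 to 92513344). Cxcl10 (ENSMUSG00000034855, 92494497 to 92496748) had 126 and 163 counts in the uniSTING libraries, against 27 and 23 in the Mock libraries. On the CPM scale these were 6.73 and 6.55 in uniSTING, against 1.53 and 1.04 in Mock, so that the groups were far apart beside the gap between libraries of a group. The log2 fold change was 2.38 (SE 0.21, adjusted p = 4.02e-06, edgeR quasi-likelihood test), the 32nd highest of 12972. The ratio of counts was 4.39 in the replicate 1 libraries (95% counting interval 2.88 to 6.92) and 6.29 in the replicate 2 libraries (4.05 to 10.2), intervals that overlap. Such intervals are exact binomial and cover counting error only. An exon of Art3, a gene on the plus strand that spans the Cxcl10 and Cxcl11 genes, shares 133 bases with Cxcl10, and as counting used no strand the reads there cannot be assigned, but Art3 had no more than 2 counts in any library.

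Cxcl11 (ENSMUSG00000060183, 92507403 to 92513344) was almost silent in Mock cells. It had 23 and 44 counts in the uniSTING libraries, against 1 and 1 in the Mock libraries. The ratio of summed counts was 30.5 (95% counting interval 8.12 to 257), and was 21.6 in the replicate 1 and 39.1 in the replicate 2 libraries. The fitted log2 fold change of 4.75 (SE 0.62, adjusted p = 8.58e-05, edgeR quasi-likelihood test) depends on how a gene near 0 is fitted and is no firmer than the ratio. GENCODE M21 lists 2 transcripts, 1 of them protein coding and the other a polymorphic pseudogene, and the C57BL/6 reference strain is known to lack a working CXCL11 protein. The counts measure RNA and say nothing of the protein that the BALB/c-derived line makes. A pseudogene on the other strand, Gm2673 (92511763 to 92513370), shares 1582 bases with the exons of Cxcl11, where reads are ambiguous. That is nearly all of the pseudogene, so that its 0 counts in every library do not measure its expression. Cxcl11 reads from those bases may go uncounted as well, which would lower its level per exon length.

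Cxcl9 (ENSMUSG00000029417, 92469206 to 92475938), known above all as a target of interferon gamma, was at the edge of detection. It had 5 and 3 counts in the uniSTING libraries, against 2 and 3 in the Mock libraries, and the groups overlapped. The ratio of summed counts was 1.46 (95% counting interval 0.420 to 5.66), and 0.888 in the replicate 2 libraries alone, so that its direction depends on uniSTING replicate 1. A difference of the kind seen for Cxcl10 lies within that interval at its upper end, and a smaller one was not detectable at this depth. Cxcl9 did not pass the filter, and without a filter its adjusted p was 0.756 (edgeR quasi-likelihood test). The inducer Ifng had 2 and 0 counts in uniSTING, against 3 and 0 in Mock.

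**Figure D2:**
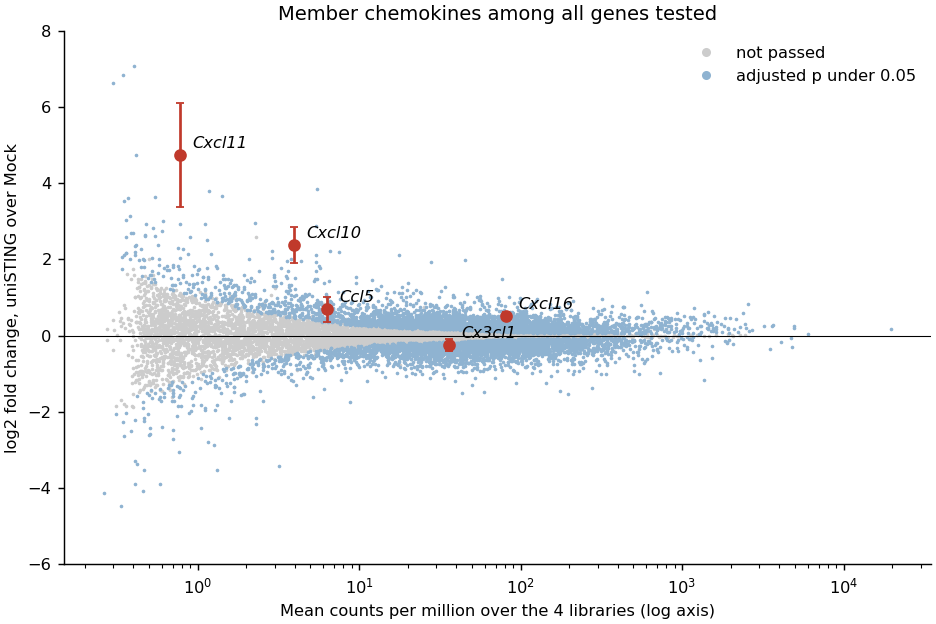
Log2 fold change of uniSTING over Mock against mean CPM (log axis) for the 12972 genes tested; blue points passed an adjusted p of 0.05, and red points with 95% intervals of the fit are the 5 tested chemokines. Cxcl11 and Cxcl10 stand at the upper edge of genes of like level, while Ccl5, Cxcl16 and Cx3cl1 lie within the broad band of called genes.

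Ccl5 (ENSMUSG00000035042, chromosome 11, 83416604 to 83421344), which attracts T cells, NK cells and monocytes, was higher in uniSTING by less than Cxcl10. It had 161 and 176 counts in the uniSTING libraries, against 81 and 112 in the Mock libraries, or 8.59 and 7.07 CPM in uniSTING, against 4.60 and 5.07 CPM in Mock. The groups did not overlap, and the higher uniSTING library was replicate 1. The log2 fold change was 0.69 (SE 0.15, adjusted p = 0.00266, edgeR quasi-likelihood test), a 1.61-fold difference. It was 1.87-fold by counts in the replicate 1 libraries (95% counting interval 1.42 to 2.47) and 1.40-fold in the replicate 2 libraries (1.09 to 1.78). Short genes as a class were higher in uniSTING, and 439 tested genes of like exon length to the 0.96 kb of Ccl5 had a median log2 fold change of 0.26. With the trend of each library with gene length removed, the log2 fold change of Ccl5 was 0.44 and still past the test.

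T cells and NK cells are themselves known to make Ccl5, and their markers moved with the replicate number. The 14 T and NK markers summed to 3.84 and 0 CPM in the uniSTING libraries, against 3.18 and 0 CPM in the Mock libraries. The granzyme gene Gzmb had 60 of the 72 counts in uniSTING replicate 1 and 44 of the 56 in Mock replicate 1. It is one of the 54 genes, Ins2 among them, that set the replicate 1 libraries apart. Cd4, Ncr1, Klrb1c and Klrk1 had none in any library and the CD3 genes at most 3. In the replicate 2 libraries, where all 14 markers were at 0, Ccl5 was 1.40-fold higher, Cxcl10 6.29-fold higher and Cxcl11 39.1-fold higher in uniSTING. The part of T and NK cell transcripts in the chemokine differences was not tested.

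Markers of myeloid cells, which can also make these chemokines, were detected in part. The 11 markers summed to 44.9 and 20.3 CPM in the uniSTING libraries, against 28.9 and 15.2 CPM in the Mock libraries, and of 6 tested Cd68 passed (log2 fold change 0.53, SE 0.13, adjusted p = 0.0065, edgeR). Cd68 did not pass with the length trend removed (adjusted p = 0.0827) or without Mock replicate 2 (0.0759). Leaving out 1 library gave 1 to 4 myeloid markers called higher, and without uniSTING replicate 1 there were also 3 called lower. In the replicate 2 libraries the pan-leukocyte marker Ptprc, Lyz2, Adgre1, Itgam, Itgax, Fcgr1 and S100a9 were at 0. S100a8 had 2 counts there in uniSTING and 0 in Mock. Lyz2, S100a8 and S100a9 are among the 54 genes that set the replicate 1 libraries apart. Cd68 was detected, at 10.4 CPM in uniSTING replicate 2, against 6.43 CPM in Mock replicate 2. Cd14 had 8.68 CPM, against 7.83 CPM, and Csf1r 1.12 CPM, against 0.996 CPM, in the same libraries. Fibroblast markers summed to 14.2 and 9.84 CPM in uniSTING, against 10.7 and 7.78 CPM in Mock, and of 3 tested Pdgfra passed (log2 fold change 0.37, adjusted p = 0.0243, edgeR). Pdgfra did not pass when DESeq2 was used (adjusted p = 0.190), and its log2 fold change was 0.29 without Mock replicate 2. Without uniSTING replicate 2 the log2 fold changes of Col1a1 and Col1a2 were 0.25 and 1.69, against -0.16 and 0.89 with all libraries. B cell markers reached at most 0.107 CPM in any library, and endothelial markers were at 1.23 and 0.321 CPM in uniSTING, against 1.93 and 0.226 CPM in Mock. The part of myeloid and fibroblast transcripts in the chemokine differences was not tested.

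**Figure D3:**
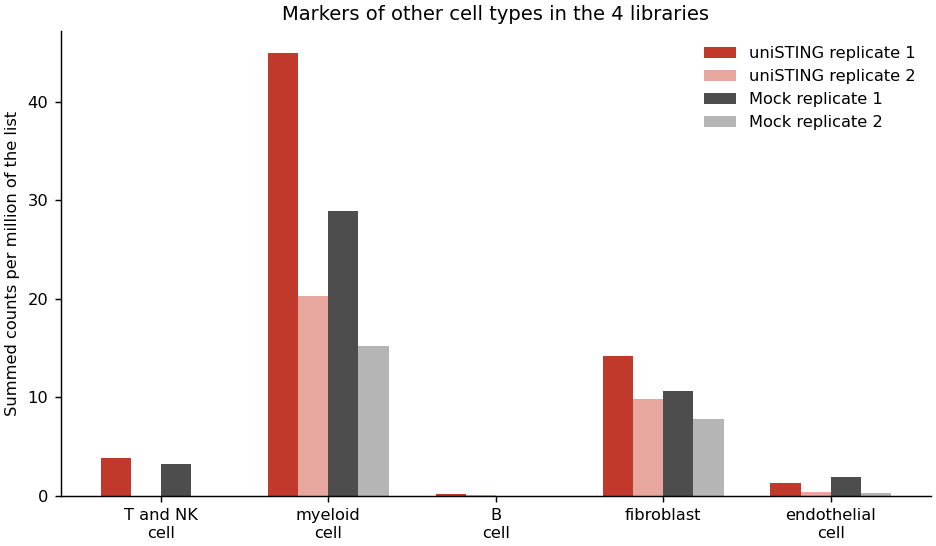
Summed CPM of 5 marker lists of other cell types in the 4 libraries, as bars from 0. Within each group the replicate 1 library is higher for T and NK cell markers (3.84 CPM against 0 in uniSTING and 3.18 CPM against 0 in Mock) and for myeloid, fibroblast and endothelial markers.

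The membrane-bound members went in opposite directions. Cxcl16 (ENSMUSG00000018920, chromosome 11, 70344809 to 70350810), the ligand of CXCR6 on effector and memory T cells, had 91.9 and 98.2 CPM in the uniSTING libraries, against 64.7 and 68.1 CPM in the Mock libraries. Its groups did not overlap, and its ratio was nearly the same in each replicate number, 1.42 and 1.44 by counts. The log2 fold change was 0.52 (SE 0.04, adjusted p = 2.39e-06, edgeR quasi-likelihood test). Genes of like exon length had a median of 0.06. Exons of Zmynd15, a gene on the other strand, share 552 bases with Cxcl16, where reads without strand are ambiguous. Zmynd15 had 56 and 66 counts in uniSTING, against 35 and 45 in Mock, and did not pass (adjusted p = 0.103, edgeR quasi-likelihood test).

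Cx3cl1 (ENSMUSG00000031778, chromosome 8, 95498637 to 95509055, plus strand), the fractalkine gene whose receptor CX3CR1 marks cytotoxic lymphocytes and monocytes, was the member that fell. It had 32.8 and 32.6 CPM in the uniSTING libraries, against 41.1 and 36.8 CPM in the Mock libraries. The groups did not overlap, but the 2 Mock libraries differed from each other by more than the lower of them differed from uniSTING. The log2 fold change was -0.25 (SE 0.07, adjusted p = 0.0139, edgeR quasi-likelihood test), which 1 library decides: without Mock replicate 1 it was -0.18 with an adjusted p of 0.124. By counts the ratio was 0.798 in the replicate 1 libraries (95% counting interval 0.716 to 0.890) and 0.886 in the replicate 2 libraries (0.803 to 0.977). Non-overlapping groups were common, as 37.8% of tested genes had both uniSTING libraries above both Mock libraries and 37.3% had them below.

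Scaled by exon length, the membrane-bound members and Ccl5 made up most of the summed RNA of the 6 members in both groups. Cxcl16 stood highest, at 31.5 ± 1.47 CPM per kb in uniSTING and 22.0 ± 0.790 CPM per kb in Mock (SD, n = 2 libraries each). Cx3cl1 followed with 8.32 ± 0.0441 in uniSTING and 9.91 ± 0.782 in Mock, and Ccl5 with 8.16 ± 1.12 in uniSTING and 5.03 ± 0.348 in Mock, in the same unit. Cx3cl1 and Ccl5 differed by less than their spread in uniSTING, and their order there turned round when the longest coding transcript was used as the length, with 9.87 for Cx3cl1 and 14.7 for Ccl5. Cxcl10 came next, at 2.95 ± 0.0556 in uniSTING and 0.571 ± 0.154 in Mock. Cxcl11 stood at 0.395 ± 0.101 in uniSTING and 0.0134 ± 0.00214 in Mock, and Cxcl9 at 0.0642 ± 0.0343 in uniSTING and 0.0413 ± 0.00522 in Mock. The Mock levels of Cxcl11 and Cxcl9 rest on 2 and 5 counts, so that their order there is not resolved.

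The makeup of the 6 genes by library differed between groups most clearly in the shares of the CXCR3 ligands and of Cx3cl1. The CXCR3 ligands took 6.65% and 6.62% of the summed per-length level in the uniSTING libraries, against 1.96% and 1.38% in the Mock libraries. Cx3cl1 took 16.3% and 16.1% in uniSTING, against 28.0% and 24.8% in Mock. Its own mean level was 8.32 CPM per kb in uniSTING and 9.91 CPM per kb in Mock, and a share also falls as the sum rises. Ccl5 took 17.5% and 14.3% in uniSTING, against 12.8% and 14.0% in Mock, apart by less than the spread within either group. Cxcl16 took 59.5% and 63.0% in uniSTING, against 57.3% and 59.8% in Mock, and its groups overlapped. The summed level of the 6 genes was 51.1 and 51.6 CPM per kb in uniSTING, against 37.4 and 37.7 CPM per kb in Mock, and most of that difference was Cxcl16.

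The genes with profiles most like each member over the 4 libraries were found by the Euclidean distance of log2 CPM, each gene centred on its own mean. For Cxcl10 they were Ifit1 (distance 0.162), Adh6b (0.307) and Rhov (0.379), and Ifit1 had 12.4 CPM in uniSTING and 2.71 CPM in Mock. Adh6b and Rhov had log2 fold changes of 3.62 and 3.63, against 2.21 for Ifit1 and 2.38 for Cxcl10. For Cxcl11 the nearest genes were Mx2, Oas2 and Ifit3b, at distances of 0.469 to 0.531. Their log2 fold changes were 3.67, 7.08 and 3.80, against 4.75 for Cxcl11. The log2 CPM held a prior count of 2, which shrinks the differences of genes with few counts, so that unlike fold changes can lie close. The nearest genes were Rnaseh2c, Urah and Mitf for Cxcl16, Snrnp25, Pigyl and Camkmt for Ccl5, and Pitpnc1, Trappc12 and Cep295 for Cx3cl1. The distances of these last 9 genes were small, 0.0152 to 0.0674, since genes with small changes lie close to many others.

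Receptors of the 6 chemokines other than Ackr3 were scarce in the tumour cells. Of 9 receptor genes, the scavenging receptor gene Ackr3, whose product binds CXCL11 and CXCL12, was the 1 that passed the filter. It had 57.0 and 58.9 CPM in uniSTING, against 60.3 and 58.7 CPM in Mock, with a log2 fold change of -0.04 whose 95% interval ran from -0.14 to 0.07 and which did not pass (adjusted p = 0.576, edgeR quasi-likelihood test). Cxcr3 had 5 and 7 counts in uniSTING, against 4 and 12 in Mock, a ratio of 0.683 (95% counting interval 0.295 to 1.54). Cx3cr1, Ccr3 and Ackr1 had 0 counts in every library, which allows up to 0.120 to 0.171 CPM in a library at a limit of 3 counts. Cxcr6 had 2 and 2 counts in uniSTING, against 0 and 0 in Mock.

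Of 9 genes whose products shed, clip or hold the chemokines, 7 were tested, with 3 called higher and 2 called lower and the median log2 fold change at 0.01. The syndecan genes Sdc1, Sdc2 and Sdc4, whose heparan sulfate chains bind chemokines at the cell surface, rose. Sdc4 had 228 and 233 CPM in uniSTING, against 190 and 190 CPM in Mock (log2 fold change 0.28, SE 0.02), and the log2 fold changes of Sdc1 and Sdc2 were 0.21 and 0.30. Adam10, the main constitutive sheddase of CX3CL1 and CXCL16, fell to 139 and 137 CPM in uniSTING, against 158 and 153 CPM in Mock (log2 fold change -0.17, SE 0.03). Adam17, which sheds them on stimulation, had 93.2 and 100 CPM in uniSTING, against 97.3 and 94.9 CPM in Mock, and did not pass, though it did with the length trend removed (log2 fold change 0.12, adjusted p = 0.0289, edgeR). Rhbdf2, which encodes the ADAM17 partner iRhom2, had a log2 fold change of -0.20 (adjusted p = 0.0488, edgeR). That call was lost with DESeq2 (adjusted p = 0.108), with the length trend removed (0.120), without uniSTING replicate 2 (0.216) and without Mock replicate 1 (0.270). Sdc3 did not pass (log2 fold change -0.20, adjusted p = 0.0618), but did without uniSTING replicate 2 (0.0492) or Mock replicate 1 (0.0310). Dpp4, whose protease clips CXCL9, CXCL10, CXCL11 and CCL5, had 6 and 0 counts in uniSTING, against 1 and 0 in Mock, and Timp3, an inhibitor of ADAM17, had 4 and 0, against 2 and 0.

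Among 15 transcription factor genes known to act on chemokine genes, all were tested, 5 were called higher and 6 lower, and the median log2 fold change was 0.03. Irf7, Irf9, Stat2 and Irf8 were among those called higher, and 4 of the 5 NF-kB genes were called lower. Irf7, which drives type I interferon and chemokine genes, had 9.71 and 7.99 CPM in uniSTING, against 1.59 and 2.40 CPM in Mock (log2 fold change 2.12, SE 0.20), the change nearest in size to that of Cxcl10. Irf9 and Stat2, whose products act together at the response element, rose by 1.13 and 0.48 on the log2 scale. Irf9 had 20.4 and 20.6 CPM in uniSTING, against 8.57 and 10.0 CPM in Mock. Irf8, a factor of myeloid and other cells, rose by 0.29 (adjusted p = 0.0489, edgeR). Irf1, a factor of interferon gamma responses, had 73.6 and 73.6 CPM in uniSTING, against 70.5 and 73.9 CPM in Mock, and Irf3, which STING activates at the protein level, had 30.6 and 32.5 CPM in uniSTING, against 29.6 and 31.9 CPM in Mock, and neither passed (log2 fold changes 0.03 and 0.04). Irf5 and Relb did not pass either, at 0.18 and -0.08.

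Of the factors that fell, Klf13, known as an activator of Ccl5 in T cells, had 40.5 and 40.3 CPM in uniSTING, against 55.5 and 55.6 CPM in Mock (log2 fold change -0.46, SE 0.05). The NF-kB genes Rel, Nfkb1, Nfkb2 and Rela fell by 0.36, 0.26, 0.14 and 0.09 on the log2 scale, and Irf2, a repressor of interferon-responsive genes, by 0.22. Nfkb1 has long exons in sum, and with the length trend removed its log2 fold change was -0.02, as that of Irf2 was -0.10, neither past the test. With DESeq2 the calls of Irf2 (adjusted p = 0.104), Rela (0.213) and Irf8 (0.286) were lost. Leaving out 1 library ended that of Irf8 in every case (adjusted p from 0.0531 to 0.211), and its call was lost in 8 of the 12 alternatives; it ended those of Irf2 without Mock replicate 1 (0.117) and of Rela without uniSTING replicate 1 (0.255), Mock replicate 1 (0.106) or Mock replicate 2 (0.0709).

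**Figure D4:**
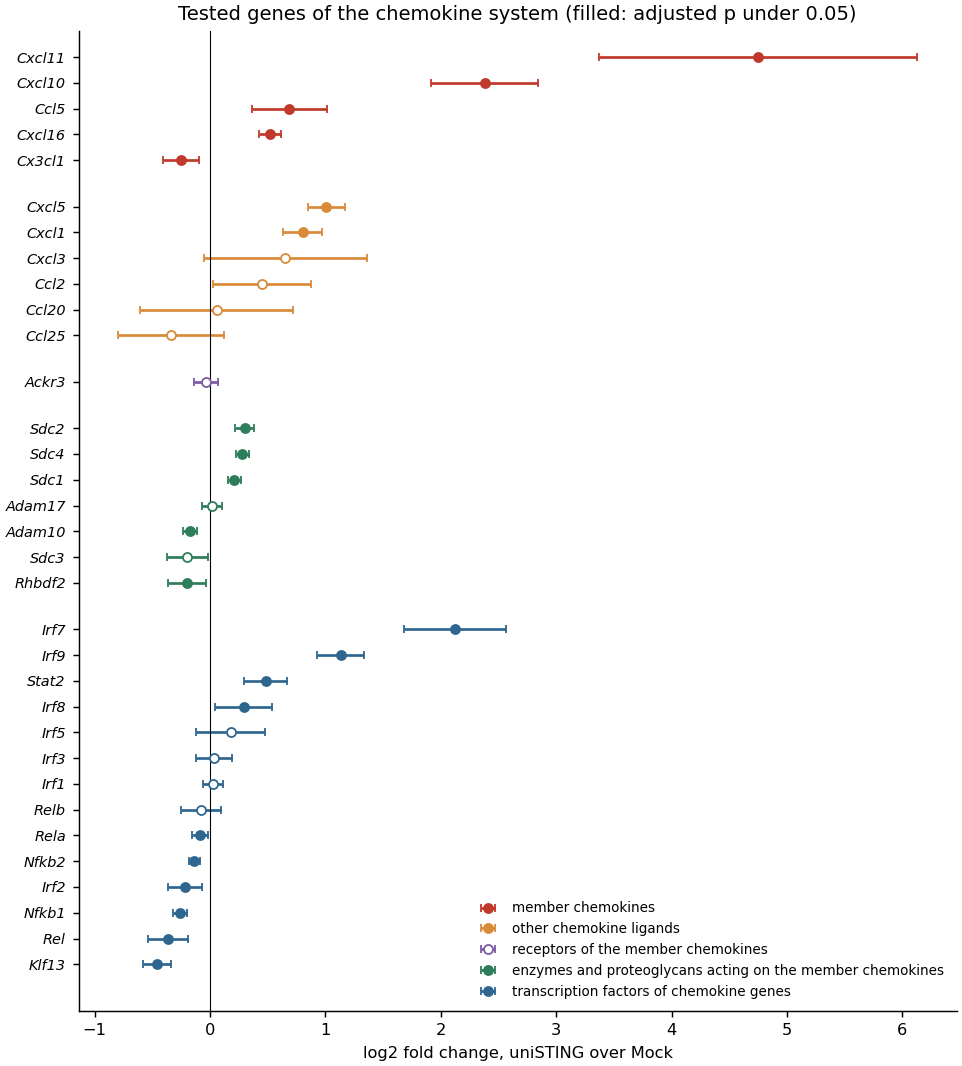
Log2 fold change of uniSTING over Mock with 95% intervals of the fit for tested genes of the chemokine system, grouped by role; filled points passed an adjusted p of 0.05, and tested genes with a standard error of 0.8 or more (Cxcl15 and Ccl6) and 1 gene not reported here are not drawn. Cxcl11, Cxcl10 and Irf7 lie beyond 2, while the receptor, sheddase and syndecan genes lie near 0, with Sdc2 at 0.30 the farthest.

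Inducing cytokines were low. Ifnb1, the interferon beta gene, had 4 and 8 counts in uniSTING, against 3 and 0 in Mock, a ratio of 3.64 whose 95% counting interval of 0.983 to 20.1 includes no difference. Tnf had 14 and 11 counts in uniSTING, against 3 and 2 in Mock, a ratio of 4.55 (1.71 to 15.2). Il1b had 19 and 7 counts in uniSTING, against 4 and 5 in Mock, and its ratio of 4.47 in the replicate 1 libraries was 1.24 in the replicate 2 libraries (0.340 to 4.97). Il1a, the most abundant of these, had 5.60 and 6.03 CPM in uniSTING, against 5.50 and 5.97 CPM in Mock. Of 8 genes listed, Il1a alone was tested, and it did not pass.

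Among 30 other chemokine ligand genes, 8 were tested, with 2 called higher, 0 called lower and the median log2 fold change at 0.44. The neutrophil attractants Cxcl5 and Cxcl1 rose. Cxcl5 had 25.6 and 26.3 CPM in uniSTING, against 12.7 and 13.2 CPM in Mock (log2 fold change 1.01, SE 0.07), and Cxcl1 had 35.6 and 36.6 CPM in uniSTING, against 22.0 and 19.5 CPM in Mock (0.80, SE 0.08). Both estimates lay above those of Ccl5 and Cxcl16 and below that of Cxcl10, and these differences between genes were not tested. The monocyte attractant Ccl2 had 3.95 and 4.22 CPM in uniSTING, against 3.35 and 2.67 CPM in Mock, and did not pass (log2 fold change 0.45, adjusted p = 0.0729, edgeR). The lung chemokine Cxcl15, named after its values were seen, had 33 and 0 counts in uniSTING, against 23 and 0 in Mock, and is one of the 54 genes that set the replicate 1 libraries apart.

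**Figure D5:**
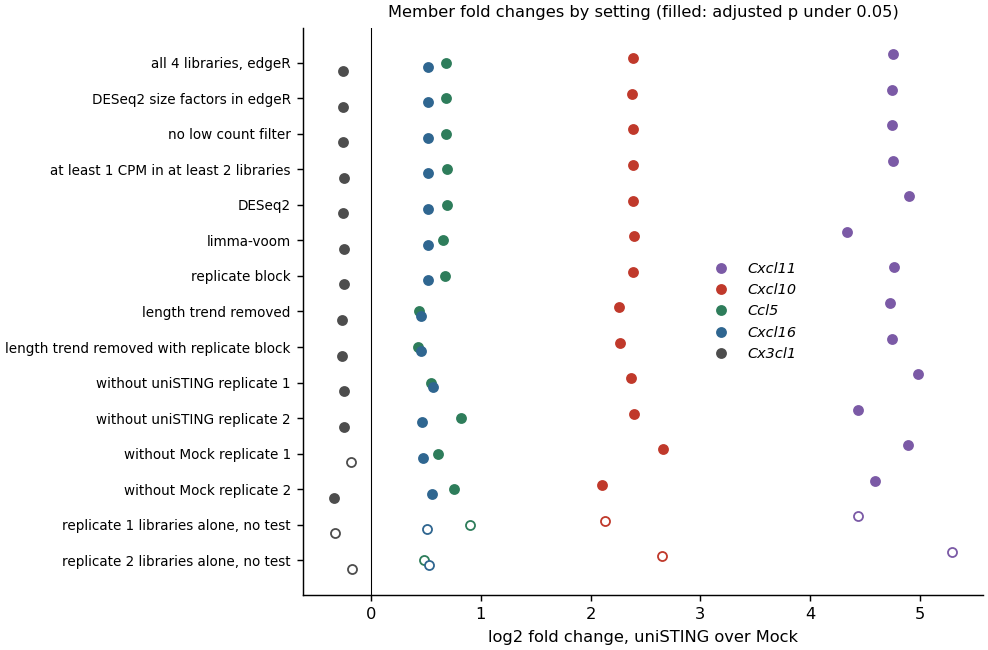
Log2 fold change of uniSTING over Mock for the 5 tested chemokines under each way of processing; filled points passed an adjusted p of 0.05, and the open points of the 2 lowest rows were not tested. In every row Cxcl11 is highest, Cxcl10 next and Cx3cl1 lowest, with Ccl5 and Cxcl16 between them in an order that changes by row. The open Cx3cl1 point without Mock replicate 1 lies at -0.18.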

How the data were processed

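The authors deposited raw counts per gene, 1 table per library. Per the file headers, they were made with featureCounts 2.0.1 over exons by gene, in paired-end mode, with no strand option, on uniquely mapped reads and the Ensembl 103 annotation of GRCm39. HISAT2 is listed per the submitters' processing notes, with no version. Symbols were matched by gene identifier (52093 of 53647).

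The counts were then fitted in R 4.3.3 by edgeR 4.0.16 (TMM, default filter by group with minimum count 10 and minimum total 15, glmQLFit and glmQLFTest), with Benjamini-Hochberg adjustment over 12972 genes at 0.05. The standard error is derived from the F statistic. CPM are counts over TMM-scaled library sizes. The test was checked on simulated counts with 200 changed genes and a common dispersion. That is far fewer changes than were called in these data, and the check held no length trend or replicate effect, so that it does not cover those conditions. Alternatives were DESeq2 1.42.0 and its size factors, limma-voom (limma 3.58.1), other filters, a replicate block, leaving out each library, and removal of a trend with exon length (lowess, span 0.3). Values of each replicate number alone, and coding transcript lengths, were added after seeing the data. The members and lists were chosen with earlier results of these data known. Genes were named by rule: the members, detected genes of the pathway lists, called chemokines of at least 1 CPM, the 3 nearest profiles of each member, and genes that overlap a member. Marker genes, Ins2, Ccl2, Cxcl15 and pathway genes with under 10 counts were named after their values were seen. A comparison of protein sequences was not made. Some genes counted in the lists are not reported here by name.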

Additional observations from a re-analysis of the deposited data

How the results depend on the processing

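Cxcl10, Cxcl16 and Ccl5 kept their direction and their call in all 12 alternatives that gave a test. Their log2 fold changes ran from 2.11 to 2.66, 0.46 to 0.57 and 0.43 to 0.82. The highest adjusted p-value of Ccl5 was 0.0304, with the length trend removed (edgeR quasi-likelihood test). Cxcl11 kept both as well (4.33 to 4.98), but it passed a count filter only through the uniSTING libraries and so had to differ there. Cx3cl1 kept its direction in all 12 (-0.33 to -0.18) and its call in 11. Without Mock replicate 1 it did not pass (log2 fold change -0.18, adjusted p = 0.124), so that 0 members were lower, against 1 otherwise. The cause was not tested. Leaving out 1 library gave log2 fold changes of 2.11 to 2.66 for Cxcl10 and -0.33 to -0.18 for Cx3cl1. The replicate 1 libraries alone gave 2.13 for Cxcl10, 0.90 for Ccl5 and -0.33 for Cx3cl1, and the replicate 2 libraries alone 2.65, 0.48 and -0.18. Numbers of genes called over the whole table stayed within 1.5 times in each setting. The labels do not tie the replicate numbers to a shared culture or day. Deviations of same-numbered libraries had a correlation of 0.66 across 11814 genes, and with the replicate block Cxcl10, Ccl5 and Cx3cl1 had log2 fold changes of 2.39, 0.68 and -0.25, with the calls of all 5 tested members kept. The block also gave 4 of 6 tested myeloid markers called higher, against 1 without it, adding Cd14, Lyz2 and S100a8. Lyz2 and S100a8 are among the 54 genes that set the replicate 1 libraries apart, so that their added calls rest on those libraries. Lyz2 had 290 and 0 counts in uniSTING, against 155 and 0 in Mock, and S100a8 had 79 and 2, against 37 and 0. Depth limits Cxcl9, Cxcl11 in Mock, Ifnb1 and the receptors, for which differences of a few counts cannot be resolved.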
